A study of Saccharomyces cerevisiae with 6 samples.

Results

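Azinomycin B was set against control in 3 pairs of arrays, which together hold all 6 of the 6 arrays of the series, and the question was which genes differed the same way in every pair whatever the dose. The arrays are Affymetrix yeast expression arrays of 1 colour, and each of the 9335 probe sets has 1 signal per array. The treated arrays are labelled A100 and B100, both with azinomycin B at 100 µg/ml, and 10, with azinomycin B at 10 µg/ml; the 3 control arrays carry the same labels and no drug. Every treated array was compared with the control array of its own label. The RNA of all 6 arrays is from Saccharomyces cerevisiae (budding yeast) grown at 30 °C and 250 rpm in the rich medium YPD, and was taken 6 h after an optical density of 1.0 was reached. The strain is not given in the labels, and ethanol, the solvent of the drug, is mentioned for treated arrays only. The labels give 10 µg/ml as the ED50 (median effective dose), which is the lower of the doses used. Dose and experiment cannot be told apart, since 1 pair carries 10 µg/ml. The labels do not say that arrays come from separate cultures, and p-values then measure only the spread between these arrays.

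Azinomycin B is a natural product of Streptomyces that alkylates guanines and cross-links the strands of DNA. Budding yeast answers such damage with a kinase cascade in which Mec1 activates Rad53 and Rad53 activates Dun1. Dun1 then relieves the Rfx1 (Crt1) repressor from the genes of ribonucleotide reductase, the enzyme that makes deoxynucleotides, and from HUG1, which encodes a small inhibitor of that enzyme. Damaged cells also hold the cell cycle while repair and replication proceed.

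HUG1 had the widest difference of all genes in pairs A100 and 10 and stood furthest from 0 in its smallest pair difference. It was higher with azinomycin B by 6.22, 3.24 and 4.05 on the log2 scale in pairs A100, B100 and 10, the order in which all triples of values are given here. The checkpoint kinase gene DUN1 was higher by 1.85, 1.59 and 0.78. On the other side stood the 2 mitochondrially encoded genes that passed the filter on dim signals, COX1, for subunit 1 of cytochrome c oxidase, at -3.67, -1.14 and -1.53, and OLI1, for subunit 9 of the ATP synthase, at -5.36, -0.99 and -2.48. No probe set passed the test across all genes (limma on log2(signal + 16), pair as a block, Benjamini-Hochberg adjusted p under 0.05 over 6956 probe sets). It called 0 higher, 0% of those tested, and 0 lower, 0%, and the lowest adjusted p was 0.584. At an unadjusted p under 0.05, 391 probe sets were higher and 169 lower. With 3 arrays against 3 the smallest p of an exact two-sided permutation test is 0.1, and with sign flips of 3 pairs it is 0.25, so values below are descriptions of these arrays. Signals come from whole cultures, in which fewer cells with a transcript and less of it per cell cannot be told apart.

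The arrays differed in ways that touch these values. The treated A100 array stood apart: it correlated at r = 0.906 with its own control across the 6956 probe sets, against 0.979 in pair B100 and 0.970 in pair 10, and the SD of the pair differences was 0.839, 0.414 and 0.472. Both arrays of pair 10 lay apart from the other 4 arrays, with correlations between 0.891 and 0.919. The 2% trimmed mean was 500.3 to 500.4 on every array, but the median signal was 143, 125 and 141 on treated arrays against 123, 112 and 128 on controls. ACT1 (actin) has probe sets at either end of its transcript, and their 3′/5′ ratio, a sign of RNA quality, was 2.09, 1.44 and 1.78 on treated arrays against 1.69, 2.05 and 1.85 on controls. The part of these array differences in the results was not tested.

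Direction was shared more often upward than downward, and this balance depends on the scaling. Of the 6956 probe sets, 1527 (22%) were higher in all 3 pairs and 850 (12.2%) were lower in all 3. A difference of at least 1.5-fold in every pair was found at 44 probe sets upward (0.633%) and 12 downward (0.173%), and a 2-fold one at 2 upward and 1 downward. Counted by gene, with 1 probe set for each of 5173 genes, 1170 (22.6%) were higher and 618 (11.9%) lower in all pairs, of which 33 (0.638%) and 5 (0.0967%) by at least 1.5-fold. In 331 genes (6.4%) all treated arrays lay above all controls, and in 134 (2.59%) all lay below. Among probe sets of 1 direction, 64.2% were higher with the signals as deposited, 51.2% after quantile normalization and 30.9% after scaling to a common median. That median scaling shifts the median pair difference of all probe sets from 0.029, 0.058 and 0.082 to -0.17, -0.092 and -0.059. All 44 and all 12 probe sets kept their sign in every pair under both scalings; 21 and 11 of them kept 1.5-fold in every pair after quantile normalization, and 15 and 12 after median scaling.

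The pairs shared a weak pattern at most. Across the 6956 probe sets, differences in pair A100 correlated at r = 0.240 (rho 0.261) with those in B100 and at 0.217 (rho 0.229) with those in pair 10, while B100 and 10 gave -0.040 (rho -0.021). Probe sets are not independent replicates, and no array is shared between pairs. The same sign was found for 59.7% of probe sets in A100 and B100, 58.4% in A100 and 10, and 50.1% in B100 and 10. Of the 44 probe sets at least 1.5-fold higher in every pair, 37 had their widest difference in A100, 4 in B100 and 3 in pair 10, and of the 12 lower ones 7, 3 and 2. The smallest difference of the 44 was in B100 for 20, in pair 10 for 20 and in A100 for 4. A test of whether the effect at 10 µg/ml differed from that at 100 µg/ml (limma on the 3 differences, 1 residual degree of freedom) called 0 of 6956 probe sets (0%), with 180 at an unadjusted p under 0.05 and a lowest adjusted p of 0.988.

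**Figure D1:**
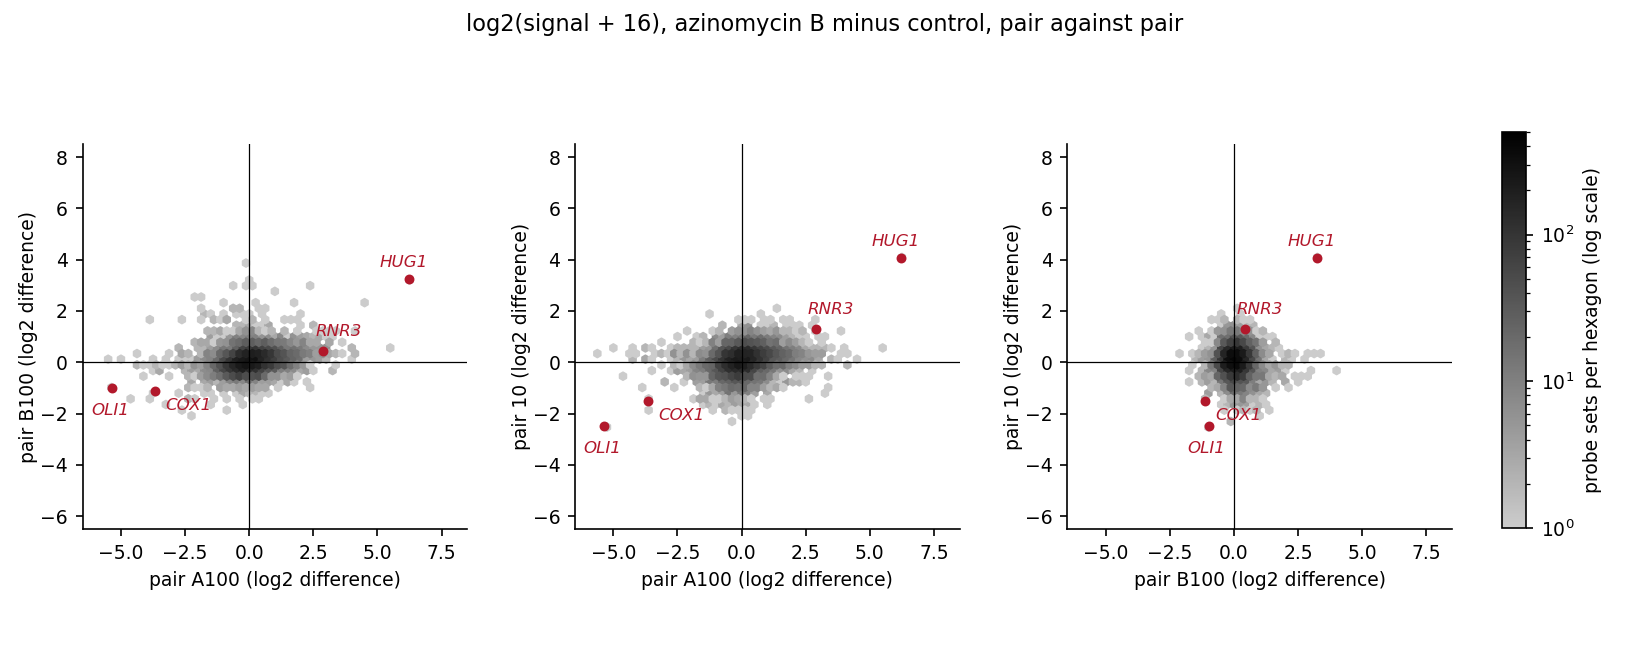
Difference of log2(signal + 16), azinomycin B minus control, in 1 pair against another for the 6956 probe sets, as hexagons shaded by the number of probe sets on a log scale. HUG1 lies to the upper right and COX1 and OLI1 to the lower left of the origin in every panel, RNR3 lies 0.44 above 0 in pair B100, and the cloud of B100 against 10 has next to no slope (r = -0.040).

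The DNA damage genes come first, since HUG1 and DUN1 lead them. HUG1 had signals of 4369.7, 477 and 1109.8 on the treated arrays A100, B100 and 10, against 42.7, 36.1 and 52.1 on their controls. The lowest treated signal lay far above the highest control, and the mean difference was 4.50 (log2, SE 0.533, n = 3 pairs, adjusted p = 0.584 by limma). With pair A100 left out the mean was 3.64, and HUG1 was then the 1 probe set called by limma, with an adjusted p of 3.61e-05 over all probe sets. That fit rests on pairs B100 and 10 alone and on a variance estimate that limma draws in part from other probe sets. Its p-value is therefore given as a description only. Treated B100 had the lowest treated HUG1 signal although its dose was 100 µg/ml; the 10 µg/ml pair minus the mean of the 100 µg/ml pairs gave -0.69 (SE 1.23, limma adjusted p = 0.988).

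DUN1 gave 354, 196 and 187 on treated arrays, against 87, 54.3 and 103 on controls, with no overlap (mean 1.40, SE 0.275). RNR3, a large subunit of the reductase made after damage, had 478, 146 and 156 on treated arrays, against 50.3, 104 and 53.6 on controls, and its B100 control was the highest of the 3 controls. Its differences were 2.90, 0.44 and 1.30, so RNR3 was below 1.5-fold in pair B100 alone. Its probe set is of a type that related transcripts can share, as are those of CRG1, MFA1, SUF16 and YNCB0005C below, so the gene behind these signals is uncertain. DIN7, a damage-inducible nuclease of mitochondria, had 265, 148 and 153 with azinomycin B and 120.1, 89.3 and 99 in control, again without overlap, and differences of 1.04, 0.64 and 0.56.

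**Figure D2:**
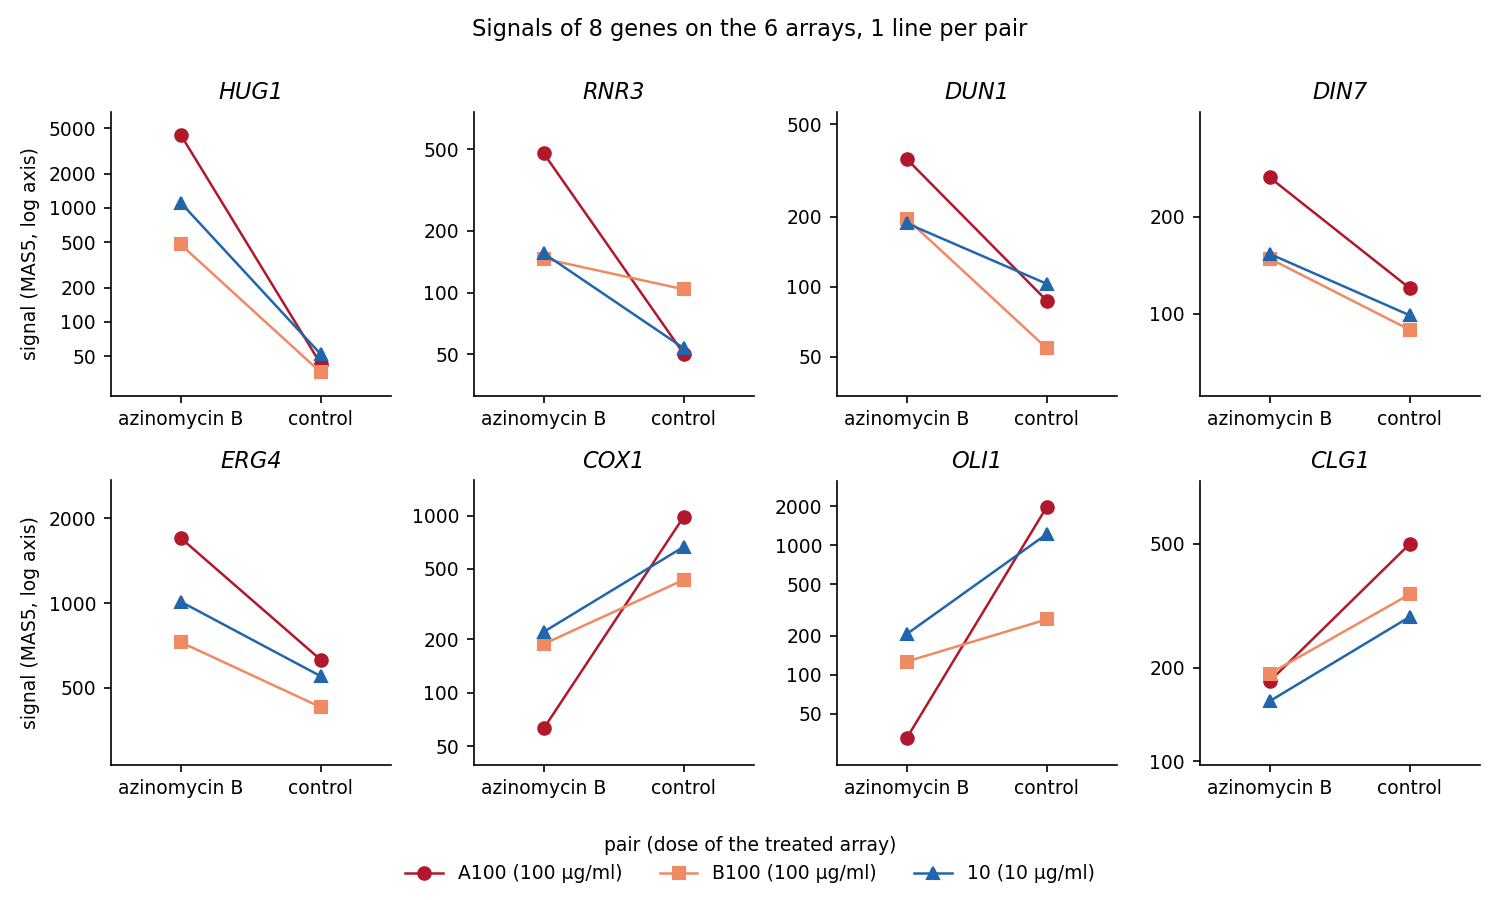
MAS5 signals (log axes) of 8 genes on the treated (left) and control (right) array of each pair; a line joins the arrays of 1 pair, and colour and marker give the pair and its dose. All treated arrays lie above all controls for HUG1, RNR3, DUN1, DIN7 and ERG4 and below them for COX1, OLI1 and CLG1, and treated A100 is the furthest out in 7 of the 8 panels, CLG1 being the exception.

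The list of DNA damage-induced genes went both ways. Of its 22 genes analysed here 20 were tested, and PLM2 and TOS4 were under the signal filter. In all pairs 8 of the 20 were higher and 3 lower, against 22.6% and 11.9% of all genes, and the list's medians were 0.20, 0.11 and 0.11 against 0.028, 0.046 and 0.11 for all genes. Besides the 4 genes above, the higher members were RFX1, which encodes the repressor itself (0.19, 0.013 and 0.65), the nucleotide excision repair genes RAD7 (0.21, 0.20 and 0.63) and RAD16 (0.87, 0.27 and 0.15), and the recombination gene RAD54 (0.42, 0.11 and 0.07). All of these had overlapping groups. The lower members were FMP52 (-0.69, -0.14 and -0.56), all of whose treated signals lay below its controls, the polyubiquitin gene UBI4 (-0.41, -0.29 and -0.32), and DDI1, a ubiquitin shuttle protein (-1.0, -0.57 and -0.076). The remaining 9 differed in sign between pairs. Among them were the small subunits of ribonucleotide reductase, where RNR2 stood at 0.90, 0.49 and -0.69 and RNR4 at 0.56, -0.24 and 0.15. The photolyase PHR1 (0.18, 0.48 and -0.13) and the kinase ALK1 (0.75, 0.64 and -0.31) were lower only in pair 10, while the DNA glycosylase MAG1 (-0.48, -0.13 and 0.55) and the peroxiredoxin TSA1 (-0.22, -0.58 and 0.32) were higher only there. RAD2 (-0.28, 0.10 and -0.26) and RAD23 (-0.69, 0.028 and -0.17) were higher only in B100. The stress gene DDR48 had that pattern (-0.12, 0.10 and -0.44) on the probe set used, which related transcripts can share, while its other probe set gave 1.66, -0.065 and -1.01. After quantile normalization 6 were higher and 4 lower in all pairs, and after median scaling 5 and 6.

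Regulators of ribonucleotide reductase went in both directions as well. Of the 12 tested, 5 were higher and 3 lower in all pairs (41.7% and 25%, against 22.6% and 11.9% of all genes). The counts were 3 and 1 after quantile normalization, and 3 and 3 after median scaling. WTM1, which holds the small subunits in the nucleus, had 3772, 7274 and 4952 on treated arrays, against 7500.0, 8287 and 7378 on controls, all treated signals being lower (differences -0.99, -0.19 and -0.57). Of the DNA damage checkpoint list, 6 of 14 tested genes were higher in all pairs and none lower. CHK1, the kinase of the metaphase arm, had 144, 180.5 and 209 with azinomycin B and 128, 133 and 128 in control and did not overlap (differences 0.15, 0.40 and 0.65). The replication initiator DPB11 (0.29, 0.11 and 0.51) and the fork protein TOF1 (1.11, 0.094 and 0.37) were higher with overlapping groups. The higher share was 42.9% (22.6% of all genes). After quantile normalization it was 14.3%, or 2 genes, below the 15.6% of all genes, and after median scaling 7.14%, DUN1 alone, below 11.6%.

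Other repair lists lay nearer to the background, which was 22.6% of all genes higher and 11.9% lower in all pairs. Recombination and crosslink repair had 5 of 16 higher and 1 lower, led by MRE11 (0.16, 0.41 and 0.52), EXO1 (0.73, 0.16 and 0.24) and the nuclease subunit SLX1 (0.15, 0.36 and 0.43). Nucleotide excision repair had 2 of 16 higher, RAD7 and RAD16, which act together on silent DNA, and 1 lower, SSL1 (-0.52, -0.013 and -0.37). Base excision repair had 3 of 9 higher and none lower, APN2 (0.33, 0.20 and 0.59), NTG1 (0.24, 0.17 and 0.34) and UNG1 (1.10, 0.023 and 0.93). Of 7 postreplication genes only ELG1, a clamp unloader, was higher in every pair (0.20, 0.54 and 0.79). After quantile normalization these lists, in the order above, had 4, 2, 2 and 1 higher and 1, 3, 0 and 1 lower (15.6% and 14.4% of all genes). After median scaling they had 1, 1, 2 and 1 higher and 1, 6, 0 and 1 lower (11.6% and 25.2% of all genes).

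Replication genes were higher in all pairs more often than genes in general. Of 32 tested, 18 were higher and 1 lower in all pairs (56.2% and 3.12%, against 22.6% and 11.9% of all genes), and the higher count was 11 (34.4%, against 15.6% of all genes) after quantile normalization and 9 (28.1%, against 11.6%) after median scaling. The list medians were 0.87, 0.21 and 0.19. RFA1, the large subunit of the single-strand binding protein RPA, had 669.6, 525 and 684 on treated arrays, against 339.7, 349 and 519 on controls, without overlap. The primase gene PRI1 had 295, 265 and 231 with azinomycin B and 218, 171 and 189.5 in control, also without overlap. The helicase subunits MCM5 (1.18, 0.36 and 0.25) and MCM7 (0.63, 0.25 and 0.43) were higher in each pair with overlapping groups. Without pair A100, 18 were higher and 5 lower in both remaining pairs (56.2% and 15.6%, against 33.7% and 16.8% of all genes).

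Of 13 G1/S genes, 6 were higher (46.2%, against 22.6% of all genes) and none lower in all pairs, with medians of 1.18, 0.60 and 0.14. The higher count was 4 after quantile normalization (30.8%, against 15.6%) and 3 after median scaling (23.1%, against 11.6%), with none lower. Without the signal filter 12 of 20 were higher (60%, against 22.6% of all genes) and none lower, but the genes this adds have dim signals. With the dimmest 50% of probe sets left out, 2 G1/S genes were tested and neither had 1 direction in all pairs. The cohesin gene IRR1 had 125, 53.7 and 158 on treated arrays, against 24.7, 24.8 and 96.7 on controls; its pair 10 control exceeded treated B100, so the groups overlapped while every pair was past 1.5-fold (1.79, 0.77 and 0.62). SWE1, the kinase that restrains mitotic Cdk, had 151, 91.4 and 103 with azinomycin B and 47.5, 54.9 and 59.1 in control, with no overlap (differences 1.40, 0.60 and 0.67). The 8 tested G2/M genes held 2 that were higher, CLB1 (1.23, 0.22 and 0.12) and CDC20 (0.67, 0.019 and 0.31). None of the 4 tested histone genes went 1 way. Of 14 M/G1 and daughter-cell genes, CTS1, the chitinase of cell separation (-0.64, -0.40 and -0.38), and RME1, a repressor of meiosis (-1.11, -0.15 and -0.59), were lower, and the glucanase SCW11 was higher (0.54, 0.72 and 0.21). Among 26 bud site and polarity genes 7 were higher and 1 lower. SPH1, of the polarisome, had 155, 36 and 55 on treated arrays, against 7.4, 19.2 and 8.2 on controls, so its groups did not overlap but 2 control signals were below the added 16.

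The other genes highest in all pairs belong to varied processes. By rule, the 15 genes whose smallest pair difference was largest are named. ARL3, a small GTPase of the Golgi, had 243, 75.8 and 105 on treated arrays, against 49.2, 21.2 and 47.7 on controls (1.99, 1.30 and 0.93). ERG4, the last enzyme of ergosterol synthesis, had 1702, 726 and 1012 with azinomycin B, against 629, 427 and 549.8 in control (1.41, 0.75 and 0.86). WSC3, a sensor of cell wall stress, had 231, 118 and 134 on treated arrays, against 91, 53.7 and 74.5 on controls (1.21, 0.94 and 0.73). Treated and control signals of these 3 genes do not overlap. The rest of the 15 were ALG14 of N-glycosylation (2.05, 1.04 and 0.86), the kinetochore gene NKP2 (0.86, 1.02 and 0.99), SBE2, needed for bud growth (0.80, 1.54 and 0.97), the methyltransferase CRG1 (1.57, 0.80 and 1.24), SUR7 of the plasma membrane eisosomes (0.98, 0.72 and 0.90), ACM1, an inhibitor of the anaphase-promoting complex (2.30, 0.96 and 0.70), and SPC29 of the spindle pole body (2.28, 0.69 and 1.35). YPR078C, with no known role, stood at 2.18, 0.71 and 1.13, and its other probe sets lay under the filter. BAR1 and MF(ALPHA)2 complete the 15 and are described with the mating genes. NKP2, CRG1, BAR1 and SUR7 had overlapping groups although every pair was past 1.5-fold. ARL3, ACM1, SPC29 and YPR078C lie among the probe sets numbered 7600 to 8500, and leaving these out left 36 of the 44. The 3 next in rank were MTG2, YNCJ0011W and YPR015C, with smallest differences of 0.66 each.

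**Figure D3:**
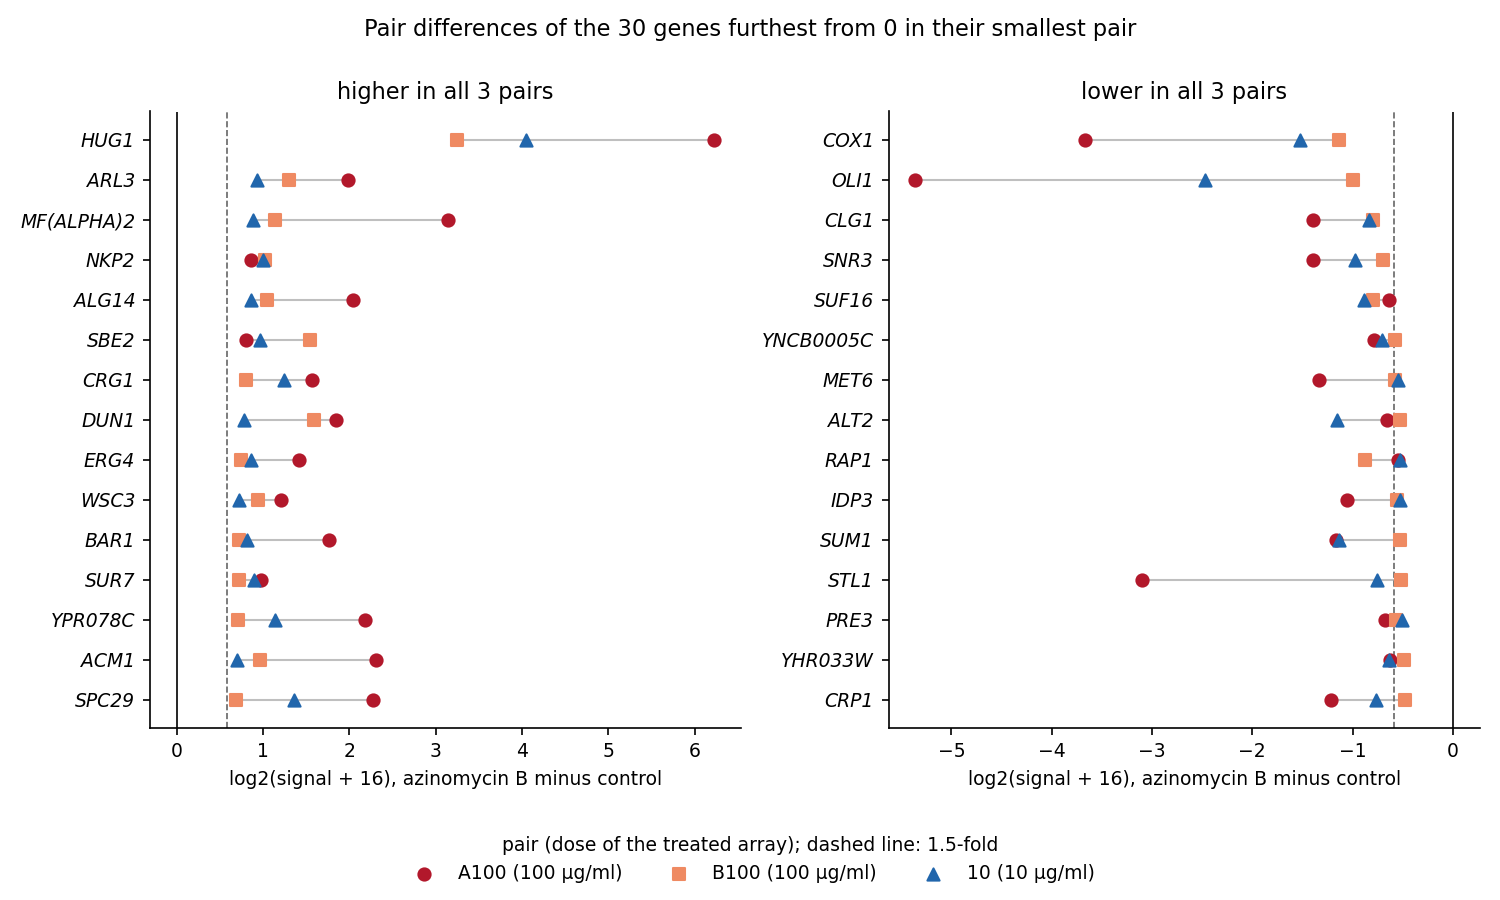
Differences of log2(signal + 16), azinomycin B minus control, in each of the 3 pairs for the 15 genes highest (left) and the 15 lowest (right) by their smallest pair difference; the grey line spans the 3 pairs and the dashed line marks 1.5-fold. HUG1 lies apart on the left, with 3.24 as its smallest difference, and OLI1 and COX1 have the most negative A100 values on the right.

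On the lower side 5 genes were at least 1.5-fold lower in every pair, and CLG1 was the 1 among them that is a nuclear protein-coding gene. COX1 had 62.9, 188 and 221 on treated arrays, against 985, 434 and 666 on controls (mean -2.11, SE 0.481, n = 3 pairs). OLI1 had 32.4, 126 and 206 with azinomycin B, against 1969, 267 and 1218 in control (mean -2.94, SE 0.736). Every treated signal of both genes lay below every control, the treated A100 array being lowest for each. The other 16 of the 18 mitochondrially encoded genes on the array lay under the filter on dim signals, as did further probe sets of COX1 and OLI1. Of these, 1 COX1 probe set did not repeat the lower values. It had 40.5, 28.9 and 11.2 on treated arrays, against 38.3, 19.1 and 16.1 on controls (0.057, 0.36 and -0.24). The remaining ones had no signal above 8.1. CLG1, a cyclin-like partner of the Pho85 kinase, had 181, 191 and 156 on treated arrays, against 499.5, 344 and 291 on controls (-1.39, -0.80 and -0.84). The small nucleolar RNA SNR3 had 18.6, 29.2 and 14.1 with azinomycin B, against 75.2, 57.2 and 43 in control, and the glycine tRNA gene SUF16 had 45.2, 34.7 and 49.4, against 79.3, 72.3 and 105 in control. Neither overlapped between groups.

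The other 10 of the 15 lowest genes were below 1.5-fold in at least 1 pair, and all but 2 overlapped between groups. SUM1, a repressor of middle sporulation genes, had 125, 214 and 273 on treated arrays, against 301, 314 and 619 on controls, without overlap. CRP1, which binds cruciform DNA, had 664, 1054 and 628 with azinomycin B, against 1564, 1479 and 1080.5 in control, also without overlap. The remaining genes were MET6, the methionine synthase (-1.33, -0.58 and -0.54), ALT2, related to alanine transaminase (-0.66, -0.53 and -1.15), RAP1, which binds telomeres and ribosomal protein promoters (-0.54, -0.88 and -0.53), IDP3, a peroxisomal isocitrate dehydrogenase (-1.05, -0.55 and -0.53), the glycerol symporter STL1 (-3.10, -0.52 and -0.75), the tRNA gene YNCB0005C (-0.79, -0.57 and -0.70) and YHR033W (-0.62, -0.48 and -0.63). PRE3, a catalytic subunit of the proteasome, stood at -0.67, -0.57 and -0.50 on the probe set used. Its other 2 probe sets gave -0.97, -0.15 and 0.13, and -0.91, -0.060 and -0.22, so the PRE3 probe sets did not all have 1 sign. The next 3 in rank were DOT6, BLM10 and NUM1.

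Transfer RNA genes, a class singled out after its values were seen, were lower more often than genes in general. Of 60 tested, 23 were lower (38.3%) and 2 higher in all pairs, against 11.9% and 22.6% of all genes. All treated arrays lay below all controls for 8 of the 60, against 2.59% of all genes. The class medians were -0.32, -0.13 and -0.43. The lower count was 30 after quantile normalization, 31 after median scaling and 29 without pair A100, against 14.4%, 25.2% and 16.8% of all genes. These probe sets are dim and many share probes between tRNA genes: with the dimmest 50% of probe sets left out, 2 tRNA genes were tested and neither had 1 direction. Among 39 small nucleolar RNAs 4 were higher and 7 lower in all pairs.

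Genes of protein synthesis were higher mainly in pair A100. Of 81 cytosolic ribosomal protein genes 39 were higher in all pairs (48.1%, against 22.6% of all genes) and none lower. The list medians, however, were 2.0, 0.34 and 0.094. Treated arrays lay above all controls for only 2 of the 81, against 6.4% of all genes. RPS14A was 1 of these 2, with 4064, 2683 and 2666 on treated arrays, against 1756, 1967 and 1865 on controls. RPL7A had 3494, 1234 and 2308 with azinomycin B, against 766, 649 and 1559 in control, and treated B100 was below the pair 10 control. Of its other 2 probe sets, 1 had the same signs and 1 stood at 0.13, 0.029 and -0.090. Without A100, 41 were higher and 4 lower in both pairs (50.6% and 4.94%, against 33.7% and 16.8% of all genes). The counts in all pairs were 43 and 0 after quantile normalization, and 20 and 2 after median scaling. Of 84 ribosome biogenesis genes 21 were higher and 1 lower, near the background of 22.6% upward, with medians of 1.02, -0.066 and 0.23. The small-subunit processome genes NAN1 (1.72, 0.35 and 0.44), UTP5 (1.49, 0.34 and 0.52) and UTP20 (0.53, 0.30 and 0.32) led this list with overlapping groups, but 3 other tested probe sets of UTP20 were lower in B100, at -0.27, -0.23 and -0.0040. Without A100, 24 of the 84 were higher and 14 lower in both remaining pairs (28.6% and 16.7%, against 33.7% and 16.8% of all genes).

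Mitochondrial ribosomal proteins, encoded in the nucleus, had smaller and more even differences. Of 56 tested 20 were higher and 4 lower in all pairs (35.7% and 7.14%, against 22.6% and 11.9% of all genes). Treated arrays lay above all controls for 11 of the 56, against 6.4% of all genes. The list medians were 0.034, 0.22 and 0.15. MRPL11 had 262, 179 and 224 on treated arrays, against 139, 109 and 149 on controls. MRPL44 had 604, 626 and 858 with azinomycin B, against 359.5, 444 and 494 in control, while MRPL17 was lower in every pair (-0.38, -0.36 and -0.41). After quantile normalization 18 were higher and 4 lower (15.6% and 14.4% of all genes), after median scaling 11 and 8 (11.6% and 25.2% of all genes). Translation factors had 9 of 29 higher and 2 lower, with SUI3, of the factor that brings initiator tRNA, at 856, 547 and 829 on treated arrays, against 383, 448 and 450.3 on controls. Subunits of RNA polymerases I and III had 5 of 24 higher and 1 lower (20.8% and 4.17%), and aminoacyl-tRNA synthetases 4 of 19 and 1 (21.1% and 5.26%). The shares of translation factors were 31% and 6.9%, and those of all genes 22.6% and 11.9%.

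General stress and respiratory genes were lower in all pairs more often than higher, and most members named here have bright probe sets. With probe sets split into 4 equal classes of mean signal, 12.6% of the brightest class were higher and 20.8% lower in all pairs, while in the class next to the dimmest 29.4% were higher and 7.59% lower. The part of signal level in the counts below was not tested. Of 41 general stress genes none was higher and 23 (56.1%) were lower in all pairs, against 22.6% and 11.9% of all genes. All treated arrays lay below all controls for 4 of the 41, against 2.59% of all genes. The list medians were -0.64, -0.20 and -0.13. HSP12, a small membrane heat shock protein, had 10198, 12561 and 11199 on treated arrays, against 12635, 15274 and 18068 on controls, with no overlap. ALD3, an aldehyde dehydrogenase, had 2950.0, 6807 and 1042 with azinomycin B, against 7362, 8944 and 1329 in control, and its pair 10 control lay below 2 treated arrays. SPI1 (-0.29, -0.37 and -0.54) and YGP1 (-0.29, -0.31 and -0.40), for a cell wall and a secreted protein, were lower with overlapping groups. The lower count was 8 (19.5%) after quantile normalization, against 14.4% of all genes, and 30 (73.2%) after median scaling, against 25.2%.

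In the list of gluconeogenesis, glyoxylate cycle and other non-fermentable carbon genes 16 of 32 (50%) were lower and none higher in all pairs. Of all genes 11.9% were lower and 22.6% higher. MLS1, the malate synthase, had 263, 4119.8 and 4288 on treated arrays, against 7220.0, 10927 and 5894 on controls (-4.70, -1.40 and -0.46), so the A100 value stands far from the others. ADH2, the ethanol-oxidising alcohol dehydrogenase, differed by -0.93, -0.98 and -0.45. Of 18 genes of the tricarboxylic acid cycle 12 (66.7%) were lower and none higher, with medians of -0.70, -0.20 and -0.22. All treated arrays lay below all controls for 5 of the 18, against 2.59% of all genes. FUM1, the fumarase, had 3161, 7041 and 7062 with azinomycin B, against 7091, 8573 and 8904 in control. SDH2, a subunit of succinate dehydrogenase, had 4568, 5958 and 5602 on treated arrays, against 7641, 7126 and 7576 on controls. KGD1 (-1.08, -0.25 and -0.27) and the pyruvate carboxylase PYC1 (-1.76, -0.74 and -0.31) were lower too.

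Nuclear genes of the respiratory chain and the ATP synthase had 16 of 41 lower (39%, against 11.9% of all genes) and none higher. Their medians were -0.42, -0.15 and -0.037. RIP1, the Rieske iron-sulfur protein, had 3899, 5958 and 4379.9 with azinomycin B, against 6283, 7033 and 7181 in control, without overlap. NDE1, an external NADH dehydrogenase, had 6029.8, 8139 and 6402 on treated arrays, against 9142, 10232 and 8258 on controls, also without overlap. ATP2, the beta subunit of the ATP synthase, differed by -0.75, -0.48 and -0.37 and COX12 by -0.31, -0.31 and -0.31. After quantile normalization the lower counts of the 3 lists were 9, 5 and 8 (28.1%, 27.8% and 19.5%, against 14.4% of all genes). After median scaling they were 22, 15 and 29 (68.8%, 83.3% and 70.7%, against 25.2% of all genes). No gene of these lists was higher in all pairs under either scaling. Without A100 the lower counts were 18, 12 and 17 (against 16.8% of all genes), with 1, 1 and 2 higher.

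Protein quality control genes were also lower more often than higher. Heat shock proteins and co-chaperones had 2 of 30 higher and 11 lower (36.7%, against 11.9% of all genes). Their lower share was 13.3% after quantile normalization, below the 14.4% of all genes, and 56.7% after median scaling, against 25.2%. SSA1, a cytosolic Hsp70, had 9442, 12889.7 and 11247 on treated arrays, against 13959, 19081 and 15181 on controls, and HSP30, of the plasma membrane, had 10394, 12269 and 11225 with azinomycin B, against 13489, 15435 and 14725 in control; neither overlapped. SSA4, the heat-inducible Hsp70, had 6207, 7690.2 and 255 on treated arrays, against 7876, 8906 and 661 on controls, so both arrays of pair 10 lay far below the other 4 arrays. The proteasome list had none of 36 higher and 10 lower (27.8%, against 11.9% of all genes). Its counts were 1 and 10 after quantile normalization, and 0 and 21 after median scaling. RPN10, a ubiquitin receptor, had 2134, 2846 and 2915 with azinomycin B, against 2971, 3351 and 3444 in control. Vacuolar proteolysis and autophagy had 2 of 25 higher and 8 lower (8% and 32%, against 22.6% and 11.9% of all genes). The lower genes were led by the carboxypeptidase PRC1 (-0.83, -0.30 and -0.31) and the protease PEP4 (-0.55, -0.32 and -0.29). Oxidative stress defence had 5 of 32 higher and 9 lower (15.6% and 28.1%), and 5 and 3 after quantile normalization. TRR1, the thioredoxin reductase, had 1566, 959 and 946 on treated arrays, against 881, 761 and 705 on controls.

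**Figure D4:**
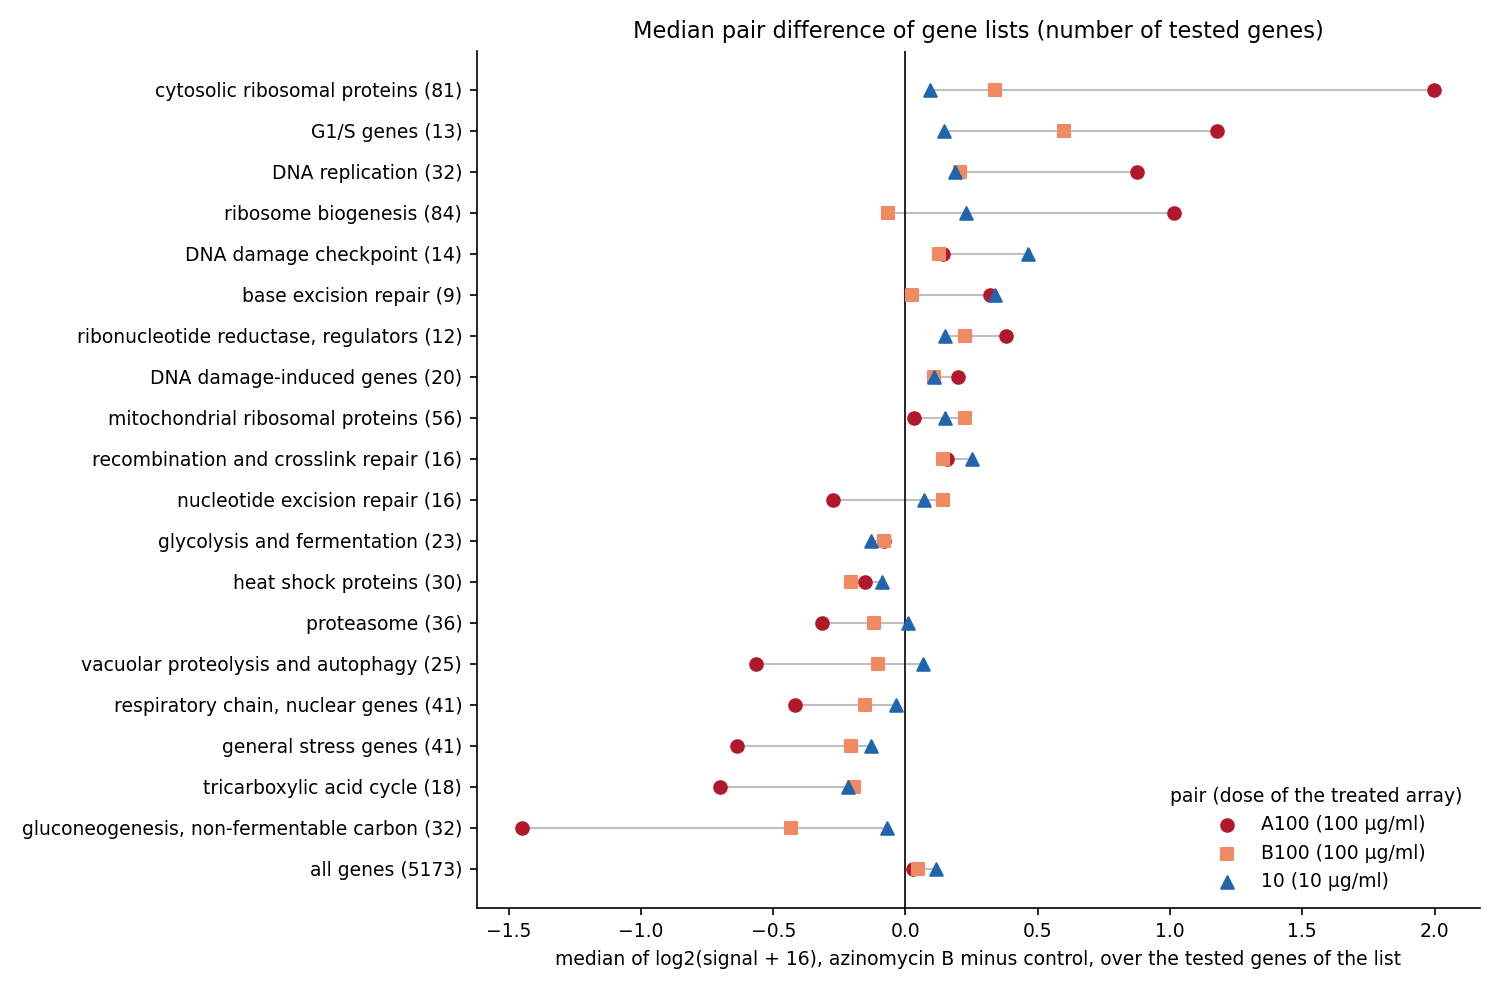
Median over the tested genes of each list of the difference in log2(signal + 16), azinomycin B minus control, in each of the 3 pairs, with all 5173 genes as the comparison. Pair A100 gives the widest spread, from -1.45 for the gluconeogenesis list to 2.0 for cytosolic ribosomal proteins among the lists drawn, while all medians of B100 and 10 but that of G1/S genes in B100 (0.60) lie within 0.5 of 0.

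The balance of glycolysis genes turned with the scaling. Of 23 genes 4 were higher and 10 lower in all pairs as deposited, 6 and 0 after quantile normalization, and 0 and 13 after median scaling. Its brightest members were lower: PGK1, phosphoglycerate kinase, had 8917, 9997 and 6868 on treated arrays, against 10733, 12798 and 10300.4 on controls, and TDH3 differed by -0.36, -0.47 and -0.56. Hexose transporters and sensors had 3 of 14 higher and 4 lower (21.4% and 28.6%, against 22.6% and 11.9% of all genes). HXT2, a high-affinity transporter, had 4027, 96.8 and 209 with azinomycin B, against 77, 60.4 and 134 in control, so 1 treated array carried most of the difference. HXT5, a transporter of slow growth, had 1924, 6128 and 5635 on treated arrays, against 6140.5, 8059 and 8009 on controls, without overlap.

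**Figure D5:**
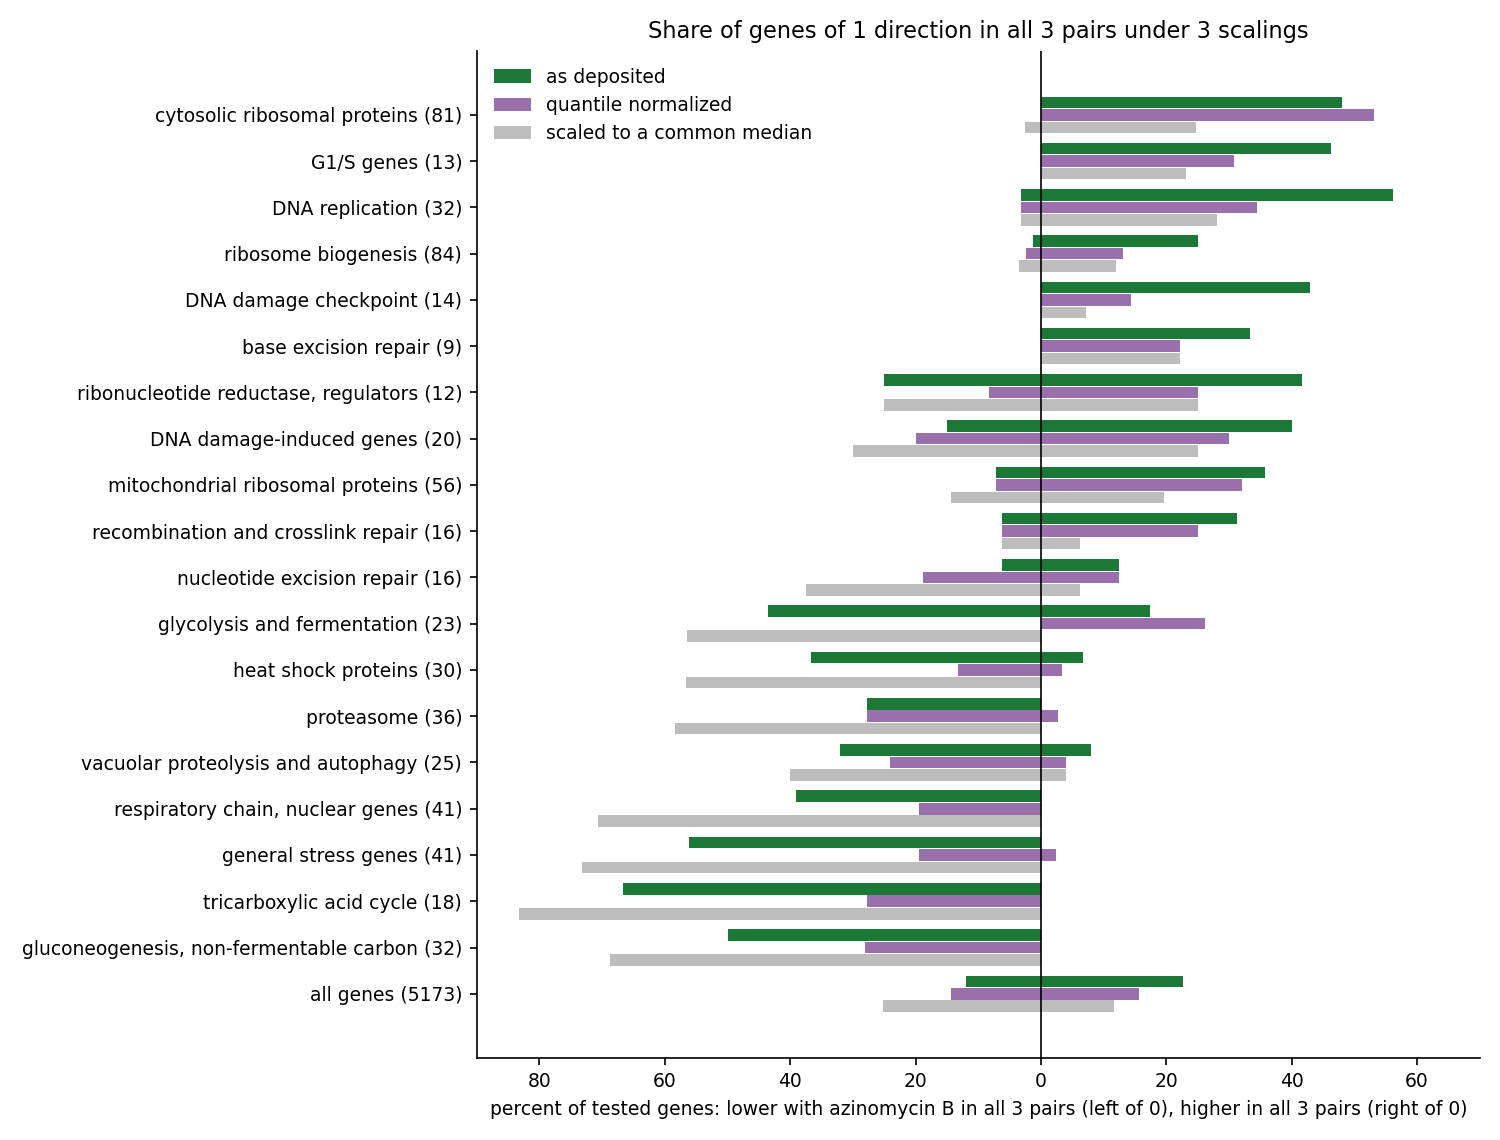
Percentage of the tested genes of each list that were lower (left) or higher (right) with azinomycin B in all 3 pairs, with signals as deposited, after quantile normalization and after median scaling; all genes are given as the comparison. The share of all genes that was higher is 22.6%, 15.6% and 11.6%, the share that was lower 11.9%, 14.4% and 25.2%, and replication genes stay above the higher share under each scaling.

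Several mating genes were higher in every pair, but of those named here only BAR1, MF(ALPHA)2 and SST2 reached 1.5-fold in each. Budding yeast of mating type a makes a-factor and the Bar1 protease that degrades alpha factor, while type alpha makes alpha factor. The labels do not give the mating type. On controls the alpha-specific genes MF(ALPHA)1 and SAG1 had 6398, 7612 and 10916, and 4273, 4139 and 4301. Control signals of the a-specific genes given below were far lower, and STE2 and ASG7 of that list lay under the signal filter. Of 5 a-specific genes 4 were higher and none lower in all pairs, against 22.6% and 11.9% of all genes. The same counts were found under both scalings and without A100, where 33.7% of all genes were higher and 16.8% lower in both remaining pairs. MFA1, an a-factor gene whose probes are shared with related genes, had 539.5, 65.3 and 136 on treated arrays, against 19.3, 40.5 and 46.1 on controls. MFA2, the other a-factor gene, had 212, 168 and 329 with azinomycin B, against 116, 126 and 143 in control, and AGA2, of the a-agglutinin, had 142, 30.3 and 34.1, against 25.1, 22 and 21.3 in control. None of these 3 overlapped between groups on the probe sets used. The other tested probe set of MFA1 was also higher in every pair (0.25, 0.47 and 1.28), but its groups overlapped. BAR1 had 95.5, 32.4 and 71.6 on treated arrays, against 16.9, 13.3 and 33.9 on controls, with treated B100 below the pair 10 control.

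Of the 4 alpha-specific genes 1 was higher and 2 lower. MF(ALPHA)2, the minor alpha-factor gene, had 3975, 603 and 719.8 on treated arrays, against 434, 265 and 382 on controls, so all treated arrays lay above. MF(ALPHA)1, the major one, was lower in every pair (-0.13, -0.22 and -0.32), as was SAG1, the alpha-agglutinin (-0.25, -0.23 and -0.12), and STE3, the a-factor receptor, varied in sign (0.041, -0.17 and 0.50). Haploid-specific and pheromone pathway genes had 6 of 17 higher and 1 lower (35.3% and 5.88%, against 22.6% and 11.9% of all genes). SST2 was furthest above 0 in its smallest pair (0.85, 0.61 and 0.74), with overlapping groups. FUS1 had 309.8, 171 and 189 with azinomycin B, against 146, 127 and 153 in control. KAR4 had 296, 97.5 and 153, against 60.9, 75.4 and 88.8 in control.

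The remaining lists are given as deposited, against 22.6% higher and 11.9% lower of all genes. Cell wall genes had 12 of 35 higher and 8 lower, with the glucanase EXG1 (1.51, 0.59 and 0.54) and the chitin synthase CHS3 (1.86, 0.66 and 0.52) the furthest above 0 in their smallest pair. Sterol synthesis had 5 of 25 higher and 1 lower, ERG4 being furthest, and the unfolded protein response 7 of 22 and 1. Iron uptake had 7 of 23 higher and none lower, with the heme oxygenase HMX1 at 0.78, 0.55 and 0.64, subtelomeric families 7 of 16 (43.8%) and none, and thiamine and pyridoxine genes 5 of 13 (38.5%) and none, with THI21 at 367, 291 and 361 on treated arrays, against 255, 226 and 205 on controls. Drug efflux had 6 of 21 higher and 3 lower, and the transporter PDR11 had 289, 167 and 163 with azinomycin B, against 142, 119 and 112 in control, without overlap. Amino acid biosynthesis had 14 of 59 higher and 7 lower, with HIS4 at 375, 259.7 and 222 on treated arrays, against 221, 182 and 134 on controls. Meiosis and sporulation genes had 5 of 16 higher and 2 lower, with DMC1, the meiotic recombinase, at 333, 116 and 109 with azinomycin B, against 74.2, 101 and 62.4 in control; its other probe set was lower in every pair, at -0.26, -0.13 and -0.26. Nitrogen catabolite genes had 2 of 24 higher and 6 lower, trehalose and glycogen 2 of 20 and 2, peroxisomal fatty acid oxidation 2 of 18 and 3, hypoxic genes 2 of 14 and 3, phosphate 4 of 21 and 2, and sulfate assimilation 5 of 30 and 2. After median scaling 11.6% of all genes were higher and 25.2% lower. Lower genes then outnumbered higher ones in the cell wall (9 and 11), amino acid (8 and 16), drug efflux (5 and 6) and phosphate (2 and 6) lists. The same held for the unfolded protein response (3 and 4), meiosis (3 and 4) and sulfate (3 and 4) lists. It also held for the trehalose and glycogen (1 and 8), nitrogen (1 and 11), peroxisomal (0 and 4) and hypoxic (1 and 4) lists.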

How the data were processed

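Yeast RNA was hybridised to 6 1-colour Affymetrix arrays. The deposited intensity values, 1 per probe set and array, are signals that the authors computed with MAS5, as the submitters' processing notes record. Version, target value and masks of MAS5 are not stated there. For arrays, their number (3 pairs) limits the precision. No further scaling was done. Signals were analysed as log2(signal + 16). The 60 control probe sets and the 25% of the others with the lowest mean were left out, which gave 6956 of 9335. Probe sets were named from GEO's platform annotation, updated through RefSeq gene IDs: 6504 had 1 gene, 328 several and 2443 none. A gene is given by its probe set of highest mean over all 6 arrays.

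The fit was limma 3.58.1 (R 4.3.3), lmFit with the pair as a block and eBayes with a trend, Benjamini-Hochberg adjusted over all probe sets at a threshold of 0.05. It was tested on simulated data. A difference is azinomycin B minus control. Pairing rests on the labels: deviations from the group means of arrays with the same label correlated at 0.071, 0.458 and 0.666, so not every pair exceeded 0.1, and treated B100 correlated at 0.618 with control A100.

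Members and the 48 gene lists were chosen with earlier results of these data known. Named are the 15 genes each way with the largest smallest pair difference, the 20 tested members of the damage list, and up to 4 members a list by the same measure; others were named after their values were seen, tRNA and small nucleolar RNA classes included. Alternatives were quantile and median scaling, pseudocounts of 1 and 64, no filter, the lowest 50% left out, no pair block, each pair left out, and probe sets 7600 to 8500 left out. Further fits had a block by experiment, no variance trend, the robust option of eBayes, or an adjusted p threshold of 0.1. No promoter or protein sequence was used here.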

Additional observations from a re-analysis of the deposited data

Results flagged for a closer look

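Among probe sets left out for dim signals, 4 genes had every azinomycin B array above every control array by at least 1.5-fold. The gap is given as log2(signal + 16) of the lowest treated array minus that of the highest control. Only probe sets with 1 gene name were searched, of which 6504 were on the array and 5670 had passed the filter. The reverse, all treated arrays below all controls, was not searched, so these 4 show no direction of dim genes in general. PLM2, a transcription factor of the G1/S and damage programmes and a member of the damage list, had a gap of 0.805, with signals of 117, 48.5 and 39.4 on treated arrays A100, B100 and 10, against 7.8, 9.5 and 15.7 on controls. HST4, a histone deacetylase, had a gap of 0.707, with 44.2, 28.9 and 42.1 on treated arrays, against 5.9, 2.5 and 11.5 on controls. YAL063C-A had a gap of 0.719, with 78.2, 24 and 53.4 with azinomycin B, against 1.6, 7.8 and 8.3 in control. BPH1 had a gap of 0.591, with 28.6, 43 and 30.3 on treated arrays, against 10.1, 13.5 and 13.6 on controls. All 12 control signals are below the added 16, and these probe sets entered no fit.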

How the results depend on the processing

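Probe sets at least 1.5-fold higher and lower in every pair numbered 44 and 12 as reported. Counted anew, they numbered 22 and 26 after quantile normalization, 15 and 40 after median scaling, and 14 and 7 with a pseudocount of 64. A pseudocount of 1 gave 82 higher, leaving out the lowest 50% gave 24 higher, and leaving out probe sets 7600 to 8500 left 36. Asking for 2-fold gave 2 and 1, and for the same sign only, 1527 and 850. With no replicate block, that is every treated array at least 1.5-fold beyond every control, 8 and 2 were counted, and the fit without the block for the pairing called 0 probe sets. Leaving out a pair gave 76 to 284 higher and 31 to 154 lower, and 0 to 1 calls higher by limma (HUG1 without A100). Means of 7 genes of mixed sign and of ENO1 and ADH1 turned sign. After quantile normalization TSA1 stood at 0.052, ENO1 at 0.033, HTB1 at 0.021 and ADH1 at 0.00091, and after median scaling RNR4 at -0.024 and STE3 at -0.050. Leaving out 1 pair, where A100 or B100 (for STE3, pair 10) turned the sign, gave -0.10 to 0.70 for RNR2, -0.049 to 0.35 for RNR4, -0.31 to 0.21 for MAG1, -0.40 to 0.050 for TSA1, -0.062 to 0.27 for STE3, -0.29 to 0.062 for HTB1 and -0.37 to 0.14 for HTZ1. The cause was not tested. In the other 2916 comparisons of a named gene with its value as reported, direction and side of the threshold were kept, HUG1 without A100 excepted. Many of these could not differ, since changes of the filter, the block or the variance settings leave a gene's mean as it was. With 0 probe sets called as reported, a gene could change side only by becoming called. The count therefore says little about how far the values depend on processing. Of the list medians 485 stayed within the spread between pairs and 43 moved. Dim signals limit what can be said of tRNA genes, SPH1 and the genes under the filter.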

Other observations

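The direction of a probe set went with its signal level and, weakly, with the length of its gene. In 4 equal classes of mean signal, dimmest to brightest, 23.7%, 29.4%, 22.1% and 12.6% of probe sets were higher with azinomycin B in all pairs, and 10.9%, 7.59%, 9.55% and 20.8% were lower. The median coding length (97.3% of lengths are multiples of 3) was 1110 bases for genes higher in all pairs, 1269 for those lower and 1296 for the rest, and Spearman's rho of length with the pair difference was -0.144, -0.055 and 0.015 in A100, B100 and 10, across genes, which are not replicates.

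Signs of the 3 pairs did not fall evenly over the patterns. In the order A100, B100 and 10, the least frequent of the 8 patterns was higher, lower, lower with 377 probe sets, while lower, lower, higher had 929 and lower, higher, lower had 847.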
